A study of Arabidopsis thaliana with 24 samples.

Results

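The expansin-like A genes of Arabidopsis thaliana are EXLA1 (AT3G45970), EXLA2 (AT4G38400) and EXLA3 (AT3G45960), 3 of the 13350 genes that the array's annotation pairs with a probe set of their own. They were found by name, and the brightest probe set of each gene was to be used, which decided nothing because each gene has 1 probe set (252563_at, 252997_at and 252557_at). The family was put forward with earlier results of these arrays known: EXLA2 was selected on its rises with ethanol in wild type and on its higher level in mock-treated ALC::TOC1 seedlings kept in constant light. For that reason the ethanol comparisons and the mock comparison in constant light are given below as a description, with no test, and the remaining comparisons are tested. Some of the tested comparisons use arrays of the groups on which EXLA2 was selected, and comparisons that share a group are not independent of each other. Tested EXLA2 values that use a wild-type group or the ALC::TOC1 LL mock group are not independent of that selection.

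The arrays hold RNA of 13-day-old Col-0 seedlings, grown for 12 days in cycles of 12 h light and 12 h dark and then for 1 more day either in constant light (LL) or in the same cycles (LD). ALC::TOC1 seedlings, a line with inducible TOC1 in which ethanol is the inducer, were set beside wild type. TOC1 is a transcriptional repressor of the plant circadian clock. Seedlings of both genotypes were submerged for 3 h in Murashige-Skoog medium with 2.5% ethanol or without it (mock), and were harvested at ZT1, 1 h after the time of lights-on. All 8 groups, mock included, received MG132, an inhibitor of the proteasome that the labels give at 20 mM. The groups, of 3 arrays each, were ALC::TOC1 LL ethanol, ALC::TOC1 LL mock, wild-type LL ethanol, wild-type LL mock, ALC::TOC1 LD ethanol, ALC::TOC1 LD mock, wild-type LD ethanol and wild-type LD mock. The labels do not say in which cells the construct is active, whether the line is 1 transformant, or whether replicates were grown and treated separately, so p-values measure only the spread between these samples. No group carried an ethanol-responsive construct without TOC1, and the level of TOC1 was not analysed here, so an effect of TOC1 and other differences between the lines cannot be told apart.

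Expansins are secreted proteins of the plant cell wall. The alpha and beta expansins (EXPA and EXPB) loosen the wall without cutting its polymers and so let cells enlarge. The expansin-like proteins, EXLA and EXLB, are related to them by sequence and carry both expansin domains, but wall loosening by them has not been established. EXLA3 and EXLA1 are neighbours on chromosome 3, with 1 annotated gene, a tRNA gene, between them in the RefSeq annotation (TAIR10.1), and EXLA2 lies on chromosome 4. Whether transcripts of one family member also bind the probes of another was not tested.

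Values are log2 levels per probe set made by robust multi-array averaging (RMA), on which a difference of 1 is a 2-fold change. Over all 24 arrays EXLA1 lay between 8.27 and 11.89, EXLA2 between 6.12 and 9.88 and EXLA3 between 4.01 and 7.39, where array medians ran from 5.146 to 5.421. Levels of different probe sets depend on their probes and are not compared with each other. Replicate arrays correlated with each other at 0.9886 to 0.9968 over all probe sets. Markers of green tissue were bright in every array, RCA at 12.71 to 13.3 and LHCB4.1 at 11.76 to 12.33, and the root hair expansins EXPA7 (3.78 to 5.23) and EXPA18 (3.35 to 4.55) were dim. These 4 were the markers, of 16 sought, with a probe set named for them. The GAPDH 3' minus 5' difference, which grows as RNA degrades, averaged 0.834 to 1.128 in 7 of the groups and 1.448 ± 0.152 (SD, n = 3) in wild-type LL mock. Wild-type LD ethanol replicate 1, at 1.575, was as high as the highest wild-type LL mock array (1.58), where the other arrays of its group had 0.858 and 0.951.

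EXLA2 is described first. In LL it stood at 9.42, 9.71 and 9.88 in ALC::TOC1 ethanol arrays, against 8.13, 7.95 and 8.22 in ALC::TOC1 mock arrays. In wild type in LL it stood at 8.89, 8.74 and 9.27 with ethanol, against 6.84, 6.73 and 7.53 under mock. Every ethanol array was thus above every mock array of its genotype, and wild-type mock replicate 3 stood apart from the other 2 arrays of its group, on the high side. In LD, EXLA2 was at 9.02, 8.78 and 8.86 in ALC::TOC1 ethanol arrays, against 6.99, 6.7 and 6.63 in ALC::TOC1 mock arrays. Wild-type LD arrays gave 8.87, 8.87 and 8.92 with ethanol, against 6.18, 6.12 and 6.43 under mock. The LD ethanol arrays of both genotypes shared one narrow range, and the lowest values of all came from wild-type LD mock.

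EXLA1 followed the same division between treatments. In LL its levels were 11.56, 11.49 and 11.89 in ALC::TOC1 ethanol arrays, against 10.22, 10.1 and 10.02 in the mock arrays of that line. Wild-type LL levels were 10.64, 10.61 and 11.23 with ethanol, against 9.29, 9.53 and 10.21 under mock. Wild-type mock replicate 3 was again the highest of its group, at the level of the ALC::TOC1 mock arrays. In LD, the ALC::TOC1 levels of EXLA1 were 10.47, 10.8 and 10.84 with ethanol, against 9.19, 9.08 and 8.27 under mock. Wild-type LD levels were 11.29, 11.09 and 11.25 with ethanol, against 8.77, 8.69 and 8.8 under mock. Here the wild-type ethanol arrays were above the ALC::TOC1 ethanol arrays, the reverse of their order in LL.

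EXLA3 lay near the middle of its arrays, and in 11 of the 12 mock arrays it was below the lowest array median. Whether levels in this range are above background was not tested. In LL it was at 6.63, 6.59 and 7.39 in ALC::TOC1 ethanol arrays, against 5.06, 5.22 and 4.8 in ALC::TOC1 mock arrays. For wild type in LL the values were 5.83, 5.55 and 5.86 with ethanol, against 4.76, 4.7 and 4.98 under mock. The ALC::TOC1 ethanol arrays were set apart from the remaining 9 LL arrays more than in either other gene. In LD, EXLA3 was at 5.56, 6.11 and 6.05 in ALC::TOC1 ethanol arrays, against 4.64, 4.92 and 4.85 under mock. Wild-type LD values were 6.14, 5.82 and 5.73 with ethanol, against 4.61, 4.01 and 4.38 under mock. With ethanol, the LD arrays of the genotypes overlapped.

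**Figure D1:**
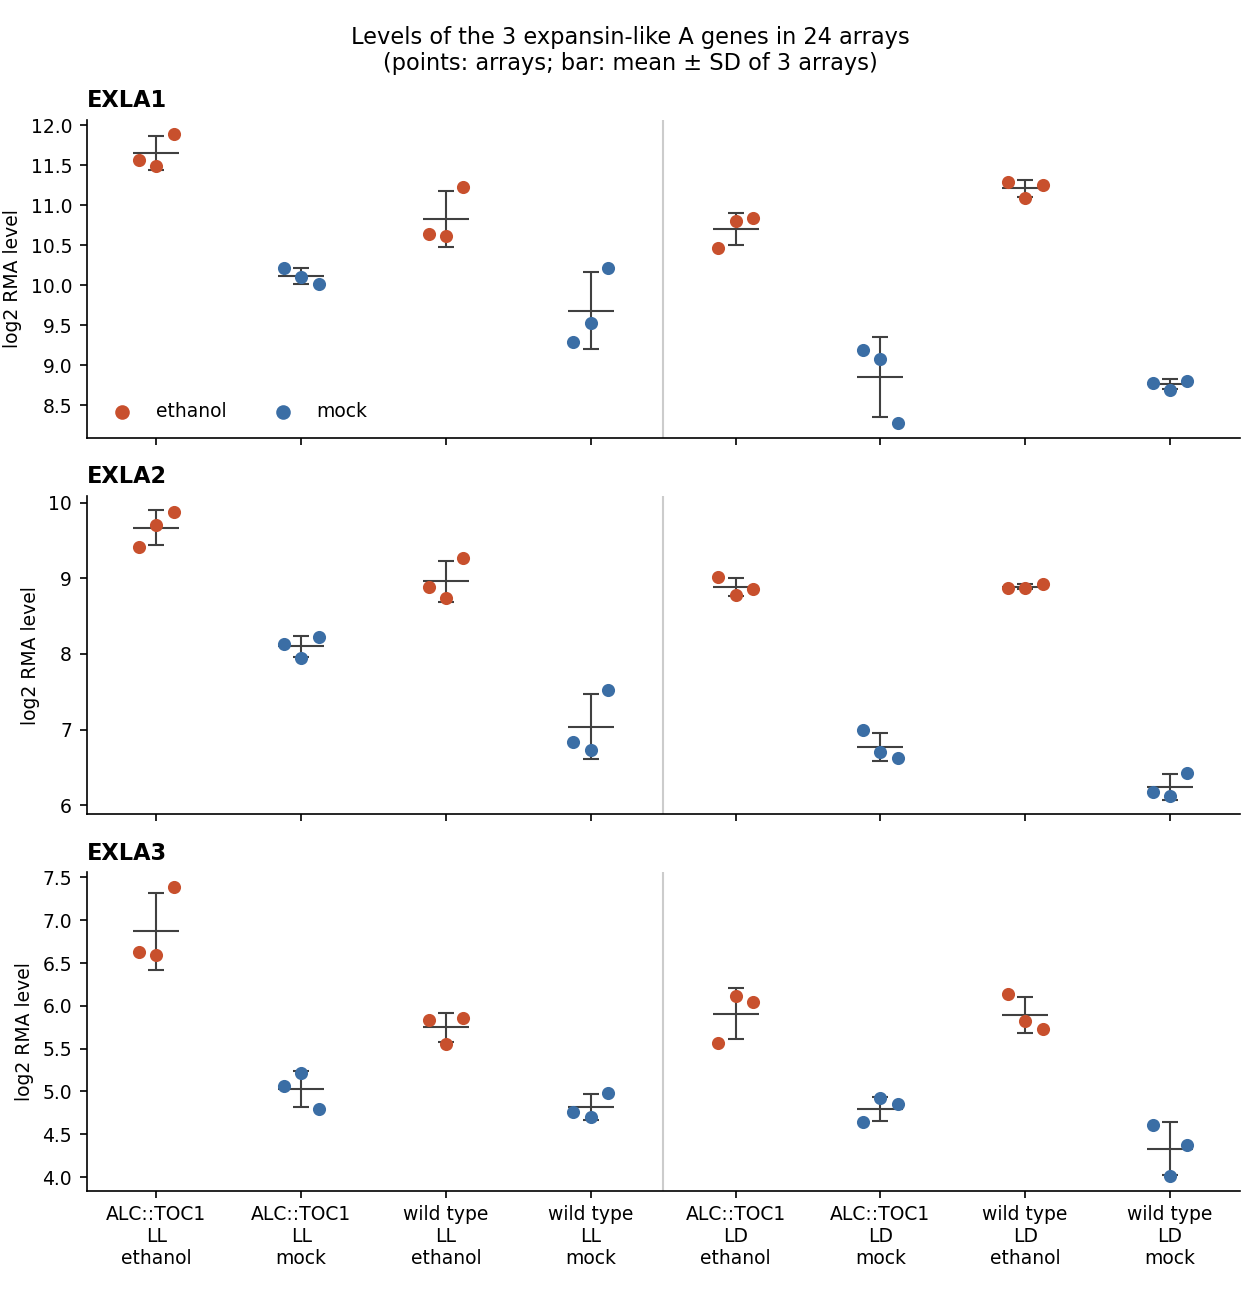
Level of EXLA1, EXLA2 and EXLA3 (log2 RMA, a separate vertical scale for each gene) in the 24 arrays, by group, with LL groups on the left and LD groups on the right; points are arrays and bars the mean ± SD of 3 arrays. In each gene the 12 ethanol arrays lie above the 12 mock arrays.

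Across genotypes and light regimes, ethanol and mock arrays did not overlap in any of the 3 genes. The 12 ethanol arrays of EXLA2 ran from 8.74 to 9.88, against 6.12 to 8.22 in the 12 mock arrays. For EXLA1 these ranges were 10.47 to 11.89 with ethanol, against 8.27 to 10.22 under mock, and for EXLA3 5.55 to 7.39 with ethanol, against 4.01 to 5.22 under mock. Of all 22746 probe sets tested, 209 (0.919%) had every ethanol array above every mock array. In bulk seedling RNA, more cells that express a gene and more transcript per cell cannot be told apart.

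The order of the 8 group means was similar in the 3 genes. ALC::TOC1 LL ethanol was the highest group in each, with a mean of 11.65 ± 0.21 for EXLA1, 9.67 ± 0.23 for EXLA2 and 6.87 ± 0.45 for EXLA3 (SD, n = 3), and its arrays did not overlap the next group. Wild-type LD mock was the lowest group in each, at 8.76 ± 0.06, 6.24 ± 0.17 and 4.33 ± 0.31 in the same order of genes. In each gene, the ethanol groups held the first 4 places, followed by ALC::TOC1 LL mock, wild-type LL mock, ALC::TOC1 LD mock and wild-type LD mock. Between the ends, neighbours in the order often overlapped. In EXLA2 the arrays of wild-type LL ethanol (8.96 ± 0.27), wild-type LD ethanol (8.89 ± 0.03) and ALC::TOC1 LD ethanol (8.89 ± 0.12) shared one range. Those of EXLA3 did likewise, with means of 5.75 to 5.91, and in EXLA1 wild-type LL ethanol overlapped both wild-type LD ethanol and ALC::TOC1 LD ethanol. Among mock groups of EXLA1, ALC::TOC1 LL overlapped wild-type LL, and ALC::TOC1 LD overlapped wild-type LD. In EXLA2 wild-type LL mock (7.04 ± 0.43) overlapped ALC::TOC1 LD mock (6.77 ± 0.19), and in EXLA3 wild-type LL mock (4.82 ± 0.15) overlapped both ALC::TOC1 mock groups.

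The ethanol differences of these genes are given as the limma estimate ± SE, from a fit of all 24 arrays. In wild type in LD, EXLA2 was higher with ethanol by 2.64 ± 0.17 (6.24-fold) and EXLA1 by 2.45 ± 0.22 (5.48-fold), the 13th and 23rd largest of 22746 differences, and EXLA3 by 1.56 ± 0.2 (2.95-fold). The wild-type LL values were smaller, at 1.93 ± 0.17 for EXLA2, 1.15 ± 0.22 for EXLA1 and 0.93 ± 0.2 for EXLA3. ALC::TOC1 seedlings in LD gave 2.11 ± 0.17 for EXLA2, 1.85 ± 0.22 for EXLA1 and 1.11 ± 0.2 for EXLA3. In ALC::TOC1 in LL the values were closer together, with EXLA3 at 1.84 ± 0.2 (3.59-fold), EXLA2 at 1.57 ± 0.17 and EXLA1 at 1.53 ± 0.22. In each of the 4 settings, all 3 genes had every ethanol array above every mock array. Of all probe sets, 16.6% did so in wild type in LL, 16.0% in wild type in LD, 14.2% in ALC::TOC1 in LL and 16.6% in ALC::TOC1 in LD. The median difference over the 3 genes was 1.15, 2.45, 1.57 and 1.85 in these settings, beside medians of all probe sets between -0.01 and 0.02. In wild type in LL the GAPDH 3' minus 5' difference was 1.018 with ethanol against 1.448 under mock (exact permutation p 0.1, the smallest that 3 arrays against 3 allow). With it as a covariate, the wild-type LL differences were 1.81 ± 0.22 for EXLA2, 1.03 ± 0.28 for EXLA1 and 1.04 ± 0.25 for EXLA3.

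Whether the response to ethanol depended on the light regime was tested directly. In wild type the ethanol effect of EXLA1 was smaller in LL than in LD by 1.3 ± 0.31 (log2 difference -1.3, 95% interval -1.96 to -0.65, adjusted p 0.018), and 2.36% of all probe sets were called in that direction, at an adjusted p under 0.05. The adjusted p was 0.0508 without wild-type LL mock replicate 3 and 0.0535 without wild-type LL ethanol replicate 2, with differences of -1.03 and -1.19. EXLA2, selected on its wild-type rises, stood at -0.71 ± 0.24 and did not pass (adjusted p 0.0891). It passed without wild-type LL mock replicate 2 (-0.87, adjusted p 0.0417) and without wild-type LL ethanol replicate 3 (-0.86, adjusted p 0.0383). EXLA3 stood at -0.63 ± 0.28 (adjusted p 0.194). In ALC::TOC1 none of the 3 genes passed in limma (2 of 3 at an unadjusted p under 0.05), where 0.396% of all probe sets were called higher and 0.607% lower. There the estimates were -0.32 ± 0.31 for EXLA1 (95% interval -0.98 to 0.33), -0.54 ± 0.24 for EXLA2 (-1.05 to -0.03) and 0.74 ± 0.28 for EXLA3 (0.16 to 1.32). The sign of EXLA3 was thus opposite to that of the other genes in ALC::TOC1, without passing the test (adjusted p 0.277). Whether this dependence on light differed between the genotypes was not tested.

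The ethanol effect was also compared between genotypes, the comparison for which an inducible line is made. None of the 3 genes passed in either regime in limma, with 1 of 3 at an unadjusted p under 0.05 in each, and 1.88% of all probe sets were called in LL and 0.413% in LD. EXLA3 came nearest in LL, where its effect in ALC::TOC1 was larger than in wild type by 0.92 ± 0.28 (95% interval 0.34 to 1.49, adjusted p 0.101). With array weights this difference was 1.06 and passed (adjusted p 0.0218). With the GAPDH covariate it was 0.79 ± 0.32 and did not pass (adjusted p 0.25). It also did not pass with any 1 array left out (adjusted p 0.056 to 0.298). EXLA1 gave 0.38 ± 0.31 (-0.27 to 1.03) and EXLA2 -0.36 ± 0.24 (-0.87 to 0.15) in LL. The EXLA2 values of both regimes subtract the wild-type rise on which EXLA2 was selected. That in LL also subtracts the ALC::TOC1 mock level used in the selection, so neither value is independent of it. In LD all estimates were below 0, at -0.6 ± 0.31 for EXLA1 (-1.25 to 0.05), -0.53 ± 0.24 for EXLA2 (-1.04 to -0.02) and -0.45 ± 0.28 for EXLA3 (-1.03 to 0.13). In LL the interval of EXLA1 reaches 1.03 and in LD it reaches -1.25, so equal responses of the genotypes were not shown.

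**Figure D2:**
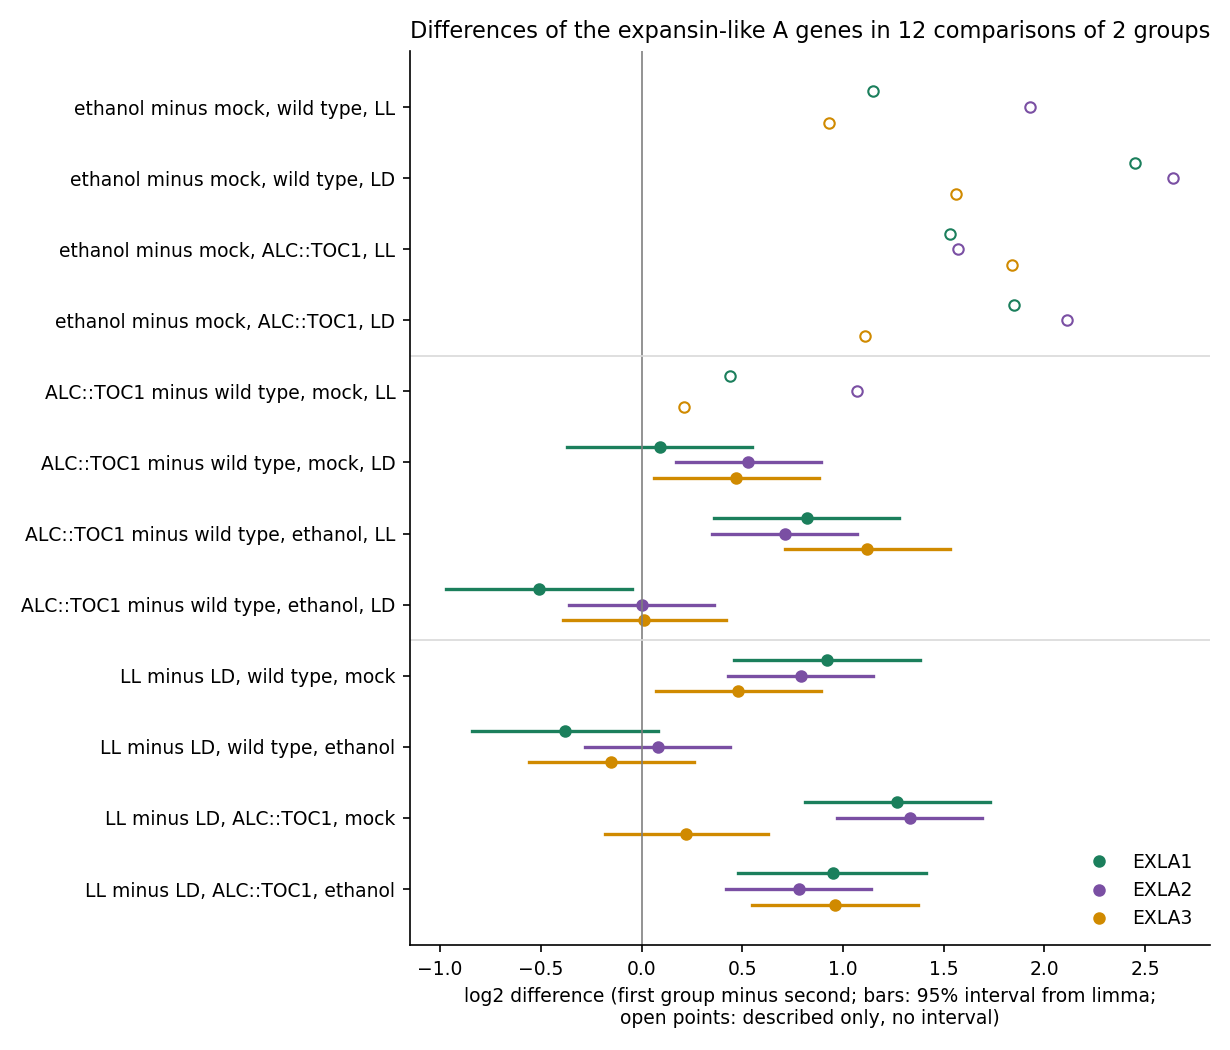
Log2 difference (horizontal axis, first-named group minus second) of EXLA1, EXLA2 and EXLA3 in 12 comparisons of 2 groups with 3 arrays each; open points are described only, and filled points carry a 95% interval from limma, not adjusted for the number of probe sets. The ethanol differences, at the top, run from 0.93 to 2.64. The intervals of the genotype differences with ethanol lie above 0 in LL for each gene. In LD that of EXLA1 lies below 0, and those of EXLA2 and EXLA3 include 0.

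With ethanol in LL, all 3 genes were higher in ALC::TOC1 than in wild type, and 11.7% of all probe sets were called higher. EXLA3 was higher by 1.12 ± 0.2 (2.18-fold, adjusted p 0.000278), EXLA1 by 0.82 ± 0.22 (1.76-fold, adjusted p 0.00927) and EXLA2 by 0.71 ± 0.17 (1.63-fold, adjusted p 0.00465). No ALC::TOC1 array overlapped a wild-type array in any of them, and 17.4% of all probe sets had every ALC::TOC1 array above every wild-type array. The call of EXLA1 was lost without wild-type LL ethanol replicate 1 (0.72, adjusted p 0.0502), without its replicate 2 (0.71, adjusted p 0.0531) and without ALC::TOC1 LL ethanol replicate 3 (0.7, adjusted p 0.0582). In LD with ethanol none of the 3 passed in limma (1 of 3 at an unadjusted p under 0.05), with 14.3% of all probe sets called in either direction. EXLA2 differed by 0 ± 0.17 there (95% interval -0.36 to 0.36) and EXLA3 by 0.01 ± 0.2 (-0.39 to 0.42). EXLA1 stood lower in ALC::TOC1, at 10.7 ± 0.2 against 11.21 ± 0.11 in wild type, with no overlap. How many of all probe sets were apart in that direction was not counted. The difference of EXLA1 was -0.51 ± 0.22 (95% interval -0.97 to -0.05) and did not pass (adjusted p 0.134). In a fit of these 2 groups alone it passed (adjusted p 0.0478).

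Under mock, EXLA2 separated the genotypes in LL, at 8.1 ± 0.14 in ALC::TOC1 against 7.04 ± 0.43 in wild type, a difference of 1.07 ± 0.17 (2.09-fold). EXLA1 differed by 0.44 ± 0.22 and EXLA3 by 0.21 ± 0.2, and in both genes the arrays overlapped. Thus 1 of the 3 genes had every ALC::TOC1 array above every wild-type array, as did 14.2% of all probe sets. Wild-type LL mock had the higher GAPDH 3' minus 5' difference (1.055 in ALC::TOC1 against 1.448 in wild type, exact permutation p 0.2). With it as a covariate the difference of EXLA2 was 0.96 ± 0.21. In LD under mock, 0 of 3 genes passed in limma, with 2 of 3 at an unadjusted p under 0.05 and 5.53% of all probe sets called. The difference of ALC::TOC1 from wild type was 0.53 ± 0.17 for EXLA2 (adjusted p 0.0798), 0.47 ± 0.2 for EXLA3 (adjusted p 0.201) and 0.09 ± 0.22 for EXLA1 (adjusted p 0.891). In EXLA2 and EXLA3 every ALC::TOC1 array was above every wild-type array, as in 11.3% of all probe sets. The difference of EXLA2 passed with array weights (adjusted p 0.0142). With the GAPDH covariate it was 0.48 ± 0.18 and did not pass (adjusted p 0.151). The GAPDH 3' minus 5' difference in LD under mock was 0.894 in ALC::TOC1 against 1.085 in wild type (exact permutation p 0.1, the smallest possible here).

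Constant light was compared with light-dark cycles within each genotype and treatment. Under mock, EXLA2 and EXLA1 were higher in LL in both genotypes. In ALC::TOC1 seedlings EXLA2 was higher by 1.33 ± 0.17 (2.51-fold, adjusted p 1.19e-05) and EXLA1 by 1.27 ± 0.22 (2.41-fold, adjusted p 0.000277), and EXLA3 stood at 0.22 ± 0.2 (adjusted p 0.448). That made 2 of 3 genes called higher, beside 12.8% of all probe sets. The EXLA2 value contains the ALC::TOC1 LL mock level used to select EXLA2, and is not independent of that selection. In wild type EXLA1 was higher by 0.92 ± 0.22 (adjusted p 0.00345) and EXLA2 by 0.79 ± 0.17 (adjusted p 0.00158), again 2 of 3 genes, beside 13.3% of all probe sets. This EXLA2 value uses the mock arrays of its wild-type rises, so it is not independent of the selection either. EXLA3 stood at 0.48 ± 0.2 there (adjusted p 0.075), and passed without wild-type LD mock replicate 1 (0.62, adjusted p 0.0412).

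With ethanol, the same comparison was made in each genotype. In ALC::TOC1 seedlings, all 3 genes were higher in LL than in LD, EXLA3 by 0.96 ± 0.2 (adjusted p 0.00121), EXLA1 by 0.95 ± 0.22 (adjusted p 0.00369) and EXLA2 by 0.78 ± 0.17 (adjusted p 0.00233), where 11.2% of all probe sets were called higher. In wild type none passed in limma, and none at an unadjusted p under 0.05, where 38.9% of all probe sets were called in either direction. The wild-type values were -0.38 ± 0.22 for EXLA1 (95% interval -0.84 to 0.08), 0.08 ± 0.17 for EXLA2 (-0.28 to 0.44) and -0.15 ± 0.2 for EXLA3 (-0.56 to 0.26). The genotype difference of these light differences was not tested.

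The 3 genes were next compared among themselves. Over the 8 group means, EXLA1 and EXLA2 correlated at r = 0.976, EXLA2 and EXLA3 at 0.949 and EXLA1 and EXLA3 at 0.94. The 4 ethanol means were above the 4 mock means in each gene, so the points fall into 2 separate sets. With each array's value taken as its deviation from its group mean, EXLA1 and EXLA2 gave a correlation over the 24 arrays (r = 0.679, rho = 0.558, and r = 0.586 without the 2 arrays farthest from the median of EXLA1). The values for EXLA1 and EXLA3 were r = 0.421 and rho = 0.533, with r = 0.499 over 22 arrays. EXLA2 and EXLA3 gave r = 0.217 and rho = 0.107, with r = 0.114 over 22 arrays. Replicate 3 was the highest array for all 3 genes in ALC::TOC1 LL ethanol, wild-type LL ethanol and wild-type LL mock, by 0.11 to 0.54 above its group mean, and its part in these values was not tested. These values are descriptions, since the values come from the same arrays and share their RNA, labelling and normalisation. The deviations of EXLA1, EXLA2 and EXLA3 correlated with those of the GAPDH 3' minus 5' difference at -0.165, -0.215 and 0.178.

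The genes whose group means followed each EXLA gene most closely were sought among 2836 named genes whose group means spanned at least 1 log2 unit. EXLA1 was followed most closely by AT2G36220 (r = 0.997 over the 8 group means and 0.954 over the 24 arrays), AT1G78280, THE1, AT2G36410 and AT3G20300, the last at r = 0.98. THE1 (THESEUS1, AT5G54380; r = 0.983 over group means and 0.942 over arrays) is a receptor kinase known for sensing the state of the cell wall. Its group means ran from 7.96 in ALC::TOC1 LD mock to 9.65 in ALC::TOC1 LL ethanol. For EXLA2 the closest were AT2G40620 (r = 0.986 and 0.963), which RefSeq lists as the basic leucine-zipper factor bZIP18, AT2G36220, AT3G60260, AT5G08350 and AT1G68440. AT5G08350 spanned the most of these, from 8.25 in wild-type LD mock to 10.92 in ALC::TOC1 LL ethanol. EXLA3 was followed by AT4G23870, AT1G68440, AT3G60260, AT5G45630 and AT1G49840, at r = 0.96 to 0.978. The group means of AT4G23870 (3.46 to 4.7) were all below the array medians, and those of AT5G45630 ran from 3.34 to 7.24. AT2G36220 stood on the lists of EXLA1 and EXLA2, and AT1G68440 and AT3G60260 on those of EXLA2 and EXLA3. All of these genes had their highest group mean in ALC::TOC1 LL ethanol, as the EXLA genes did, which largely follows from their choice by r. Correlations over 8 means were high for many genes, since 83 genes exceeded 0.9 with EXLA1, 76 with EXLA2 and 53 with EXLA3. Ranked by r over the 24 arrays in place of the means, 3 of the 5 genes named for EXLA1, 4 of 5 for EXLA2 and 1 of 5 for EXLA3 kept a place among the first 5.

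**Figure D3:**
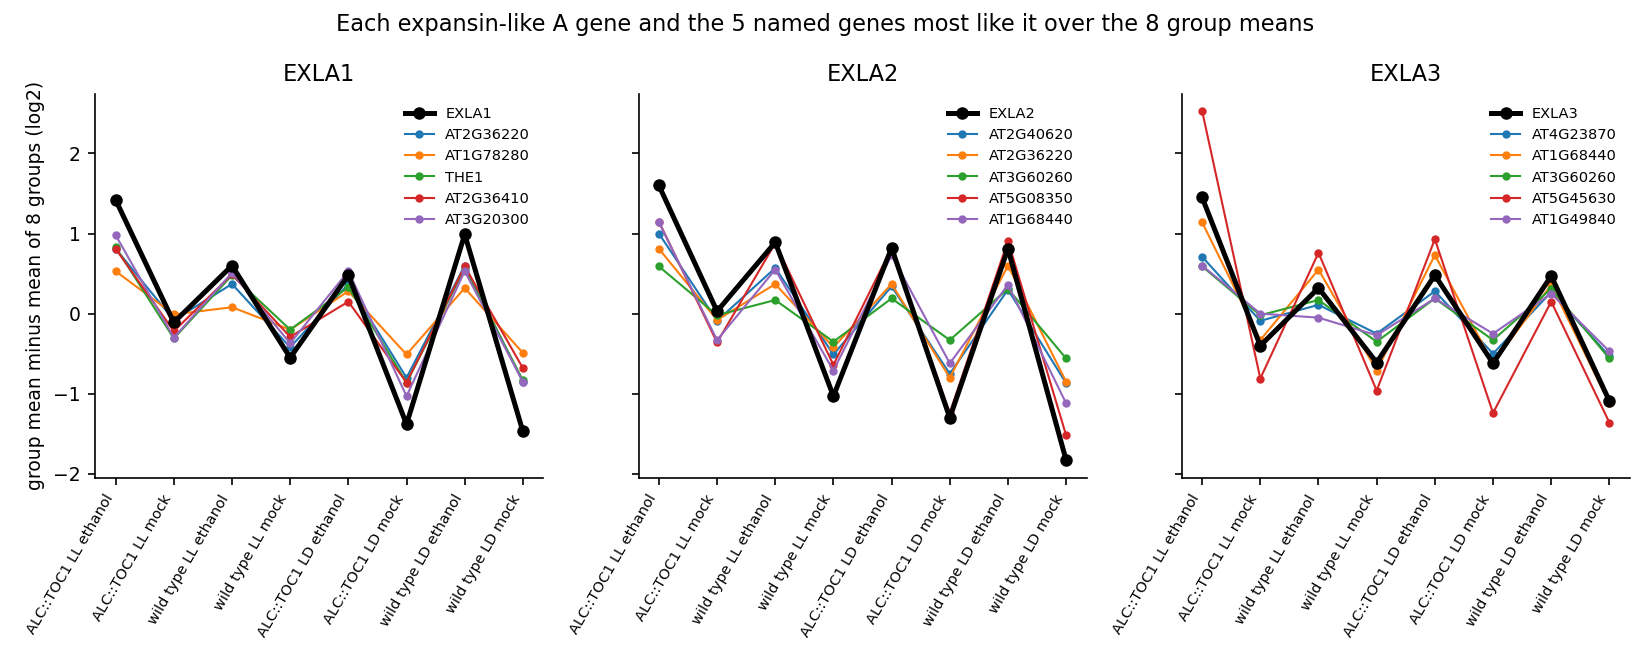
Group means less their mean over the 8 groups (vertical axis, log2) of EXLA1, EXLA2 and EXLA3 in black and, in each panel, of the 5 named genes with the highest Pearson r to it over the group means, in colour. Lines join groups only to guide the eye. Every gene shown has its highest mean in ALC::TOC1 LL ethanol, which largely follows from the choice by r.

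Other expansins and the xyloglucan endotransglucosylase/hydrolases (XTH), enzymes that cut and rejoin the xyloglucan chains of the wall, were set beside the EXLA genes. Of 65 such genes, 25 had a named probe set: 10 EXPA, 4 EXPB, EXLB1 and 10 XTH genes. In wild type in LD, 5 of the 25 rose with ethanol and 2 fell, beside 11.2% and 14.9% of all probe sets. The counts in wild type in LL were 6 and 1 (7.88% and 7.91% of all probe sets). In ALC::TOC1 in LD 6 rose and 0 fell (8.31% and 10.4%), and in LL 3 rose and 0 fell (6.45% and 8.92%). List medians lay between 0.01 and 0.06, and those of all probe sets between -0.01 and 0.02. EXLB1, the other expansin-like gene, passed in none of the 4 settings, with values of -0.46 to 0.06.

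Among the 10 alpha expansins, no gene was called in both genotypes, and the share of all probe sets called in both was not counted. Of the alpha expansins, 3 rose and 1 fell in wild type in LL, beside 7.88% and 7.91% of all probe sets. EXPA9 rose by 1.07, EXPA15 by 0.94 and EXPA7 by 0.86, and EXPA8 fell by 0.93. EXPA8 also fell in wild type in LD, by 0.89, where no EXPA gene rose (14.9% of all probe sets were called lower and 11.2% higher). The group means of EXPA8 were 3.18 to 4.39 and those of EXPA7 4.0 to 5.04, both below the array medians. In ALC::TOC1, EXPA20 rose in LL by 0.66 and in LD by 0.47, where 6.45% and 8.31% of all probe sets were called higher. Its group means were 4.42 to 5.34. None of the 4 EXPB genes passed in limma in any setting, where 15.4% to 26.1% of all probe sets were called in either direction. These genes are named because the counts are small, after their values were seen.

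Of the 10 XTH genes, 5 were called higher with ethanol in ALC::TOC1 in LD, where 8.31% of all probe sets were, and 2 in ALC::TOC1 in LL (6.45%). In wild type the counts were 5 higher (11.2%) and 1 lower (14.9%) in LD and 3 higher (7.88%) in LL. The gene called lower was XTH32, at -1.38 ± 0.32 (adjusted p 0.00274), named after its values were seen. Its other values, none called, were -0.24 in wild type in LL, -0.61 in ALC::TOC1 in LL and -0.85 in ALC::TOC1 in LD. XTH18 rose in all 4 settings, by 1.16 ± 0.21 in ALC::TOC1 in LD (adjusted p 0.000366), 1.23 ± 0.21 in wild type in LD, 1.01 ± 0.21 in ALC::TOC1 in LL and 0.66 ± 0.21 in wild type in LL (adjusted p 0.032). XTH19 rose by 1.76 ± 0.25 in ALC::TOC1 in LD, 1.55 ± 0.25 in wild type in LD and 1.15 ± 0.25 in wild type in LL, and stood at 0.71 ± 0.25 in ALC::TOC1 in LL (adjusted p 0.0616). XTH16 rose by 1.28 ± 0.24 in ALC::TOC1 in LD, 1.89 ± 0.24 in wild type in LD and 0.92 ± 0.24 in wild type in LL (adjusted p 0.0122). XTH33 rose by 1.43 ± 0.3 in ALC::TOC1 in LD, 2.02 ± 0.3 in wild type in LD and 0.92 ± 0.3 in ALC::TOC1 in LL (adjusted p 0.0411), and stood at -0.16 ± 0.3 in wild type in LL. Some LL calls were lost with 1 array left out. XTH18 in wild type missed the threshold when any 1 of 5 arrays was left out (adjusted p 0.0593 to 0.159), and XTH33 in ALC::TOC1 when any 1 of 6 was (0.0515 to 0.151). XTH16 in wild type in LL missed it without ethanol replicate 3 (adjusted p 0.0519). With the GAPDH covariate, neither XTH18 (adjusted p 0.163) nor XTH16 (0.0639) passed in wild type in LL. XTH33 in ALC::TOC1 in LL did not pass with eBayes trend and robust settings (adjusted p 0.053). XTH16 in ALC::TOC1 in LL stood at 0.63 ± 0.24 (adjusted p 0.088), and passed with median centring (adjusted p 0.0267), array weights (0.0289) and only the compared arrays in the fit (0.0161). XTH19 passed there under the same 3 alternatives (adjusted p 0.00209 to 0.047) and without dim probe sets (0.0436). XTH18 and XTH19 are named here as separate probe sets, and whether each binds transcripts of the other was not tested.

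**Figure D4:**
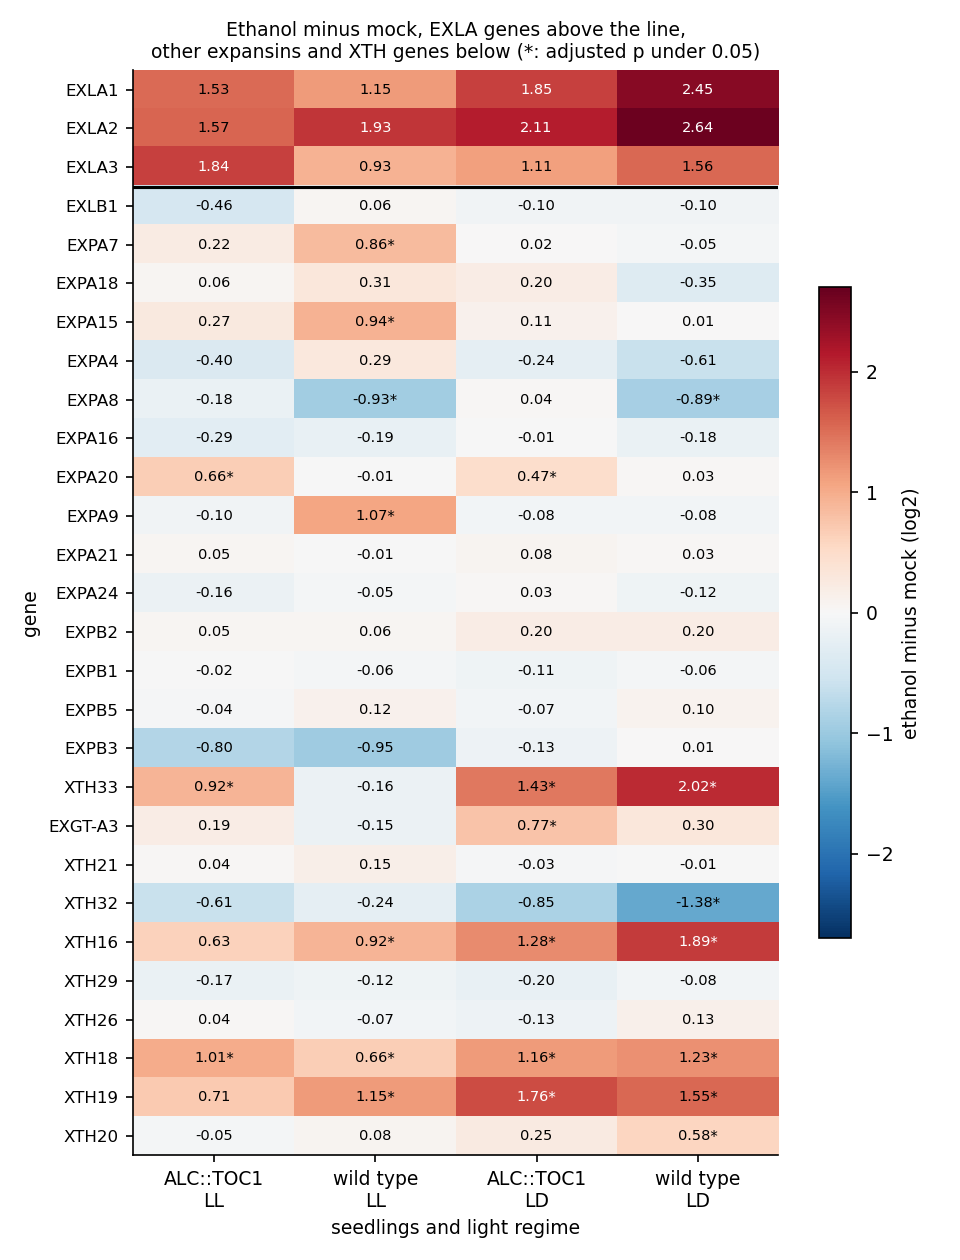
Log2 difference between ethanol and mock arrays (colour and printed value) in 4 settings for the 3 EXLA genes, above the line and with no test, and for 25 other expansin and XTH genes, below the line, where an asterisk marks an adjusted p under 0.05 in limma. The EXLA genes are higher with ethanol in every setting, at 0.93 to 2.64, and EXLB1 and the EXPB genes carry no asterisk.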

How the data were processed

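The deposited values are log2 expression levels per probe set of the Affymetrix ATH1 array, made by the authors with RMA in the affy package, per the submitters' processing notes, which give no version. RMA corrects background, quantile-normalises and summarises probes, so levels of different probe sets do not share a scale and low levels are compressed. The number of arrays, 3 a group, limits the precision.

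The table holds 22810 probe sets, of which 64 are controls. The remaining 22746 were fitted with limma 3.58.1 (R 4.3.3) in 1 fit of the 24 arrays, with a mean per group, eBayes (16 residual and 4.87 prior degrees of freedom), no filter on dim probe sets and Benjamini-Hochberg adjustment over all of them, at an adjusted p under 0.05. The procedure was tested on simulated data. The platform annotation gave 1 gene name to 13513 probe sets and several to 503, and 8730 are unnamed here.

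The members and the lists were chosen with earlier results of these data known. Named genes were the 3 EXLA genes, for each the 5 genes with the highest r over the group means, and members of the expansin and XTH list called in at least 3 of the 4 ethanol comparisons. Outside this rule, EXPA7, EXPA8, EXPA9, EXPA15, EXPA20 and XTH32 were named after their ethanol values were seen. Alternatives were a filter at 5 log2 units, quantile normalisation again, median centring, eBayes with trend and robust settings, array weights, a replicate block, the GAPDH covariate, fits of the compared groups only, and each array left out.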

Additional observations from a re-analysis of the deposited data

Results flagged for a closer look

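EXLA1 had a smaller ethanol effect in LL than in LD in wild type, a difference of -1.3 ± 0.31 on the log2 scale (limma, adjusted p 0.018), and it is given here because this difference between light regimes passed its own test. The call was lost without wild-type LL mock replicate 3 (-1.03, adjusted p 0.0508) and without wild-type LL ethanol replicate 2 (-1.19, adjusted p 0.0535). The ethanol differences behind it were 1.15 ± 0.22 in LL and 2.45 ± 0.22 in LD, and the mock arrays stood at 9.68 ± 0.48 in LL against 8.76 ± 0.06 in LD (SD, n = 3).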

How the results depend on the processing

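Of 534 alternative values for the 33 tested EXLA results (11 comparisons of 3 genes), 506 kept their direction and side of the threshold. Of 210 for the 15 described without a test, 0 changed sign and 4 moved by more than 1 SD between replicates, each with 1 array left out. The ranges of those over the arrays left out were 1.78 to 2.18 (EXLA2) in wild type in LL, 1.58 to 1.98 (EXLA3) in ALC::TOC1 in LL and 1.56 to 2.03 (EXLA1) in ALC::TOC1 in LD for ethanol against mock, and 0.91 to 1.31 (EXLA2) between genotypes under mock in LL. Among tested results, reversals touched differences near 0. Between genotypes with ethanol in LD, EXLA3 turned to -0.03 with quantile normalisation again and -0.06 with median centring, and EXLA2 to -0.07 with centring, -0.04 with array weights and -0.08 with the GAPDH covariate. EXLA2 in LL against LD, wild type, ethanol, turned to -0.03 with centring. Results that newly passed were the mock genotype difference of EXLA2 in LD (0.52 with array weights, and 0.53 with the replicate block, adjusted p 0.0456), the genotype difference of the ethanol effect of EXLA3 in LL (1.06 with array weights) and EXLA1 between genotypes with ethanol in LD (-0.51, only the compared groups fitted). With each array left out, some tested results changed side or sign. Between genotypes under mock in LD, EXLA1 gave -0.08 to 0.38. Between genotypes with ethanol, EXLA1 gave 0.7 to 1.02 in LL, and in LD EXLA2 gave -0.07 to 0.06 and EXLA3 -0.09 to 0.19. For LL against LD in wild type they were 0.32 to 0.62 (EXLA3, mock) and -0.07 to 0.19 (EXLA2, ethanol), and for the ethanol effect there -1.51 to -1.03 (EXLA1) and -0.87 to -0.46 (EXLA2). XTH33 in wild type in LL turned to 0.09 with the GAPDH covariate and ran from -0.57 to 0.11 with each array left out. Same-numbered replicates deviated together in some comparisons but not in all: the correlation of their deviations ran from -0.399 to 0.488, was over 0.1 in 9 of 36 pairs and was over 0.1 for all pairs in 0 of 12 comparisons, and in 2 of 12 every array correlated best with its own number. The numbers were not taken to pair samples. The replicate block also let XTH19 in ALC::TOC1 in LL pass (0.71, adjusted p 0.0418) and changed the call of no other tested EXLA result or named XTH gene. The cause of these changes was not tested. Some counts of called probe sets moved by over 1.5 times. With ethanol against mock in wild type in LL, 3591 became 2130 (GAPDH covariate) or 2183 (compared groups only), and in ALC::TOC1 in LD 4255 became 7118 (array weights). Between genotypes under mock in LL, 1355 became 327 to 2085, under mock in LD 1258 became 658 to 3960, and with ethanol in LD 3260 became 1500 to 4370. For the ethanol effect between genotypes, 427 in LL became 193 to 1424 and 94 in LD became 45 to 542. For the ethanol effect between light regimes, 1348 in wild type became 600 to 1941 and 228 in ALC::TOC1 became 111 to 1102. Of the expansin and XTH list, 4 to 6 genes were called higher in wild type in LL, 4 to 6 in wild type in LD, 2 to 5 in ALC::TOC1 in LL and 5 to 7 in ALC::TOC1 in LD, and in the same order 1 to 2, 1 to 4, 0 to 2 and 0 to 1 lower. The lowest ethanol array stayed above the highest mock array by 0.26 (EXLA1), 0.58 (EXLA2) and 0.37 (EXLA3) after centring. Other probe sets of a gene were not run, since each gene has 1.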
